A study of Homo sapiens with 6 samples.

Results

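Messenger RNA of the interleukin-6 cytokine family and its receptor gp130 was measured after depletion of UBE3D in MDA-MB-231 cells, an established line from a triple-negative breast cancer. The family was represented by 8 of the 20115 genes in the table, taken by gene symbol: the ligands IL6, IL11 and LIF, the receptor chains LIFR, OSMR and IL6ST, the transcription factor STAT3 and the feedback inhibitor SOCS3. A second table covered 2014 regions of readthrough transcription past gene ends (DoG, downstream of gene), and 0 of these carried the name of one of the 8 genes. Of the 6 libraries, 3 came from control cells and 3 from UBE3D KD cells, in which doxycycline induced short hairpin RNAs integrated by lentivirus. Whether control cells held a hairpin or were given doxycycline is not stated, and every sample is described as pooled. Separate cultures are not stated either, so p-values measure only the spread among these libraries, which may be technical. All groups shared medium with 10% fetal bovine serum.

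Most cytokines of this family are secreted proteins that signal through gp130, the shared chain encoded by IL6ST, together with other receptor chains. IL-31, often grouped with them, signals through IL31RA and OSMR without gp130. LIF signals through LIFR with gp130, oncostatin M through OSMR or LIFR with gp130, IL-6 through IL6R, and IL-11 through IL11RA. Gp130 carries JAK kinases that phosphorylate STAT3, which then enters the nucleus and switches on genes that include SOCS3, an inhibitor that binds the receptor and stops the signal. In breast cancer cells, the family is known for autocrine signalling that bears on survival, migration and invasion.

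The tables held 1 comparison, knockdown over control, without values per library, so no value per replicate can be given and sequencing depth is unknown. The mean normalized count over the libraries ranged from 7.74 to 135141 per gene, and all 8 genes lay well inside it, from 139 for IL6 to 4882 for IL6ST. Log2 fold changes (log2 changes below) and standard errors (SE) are as deposited and shrunken toward 0, and 95% intervals were computed from them. A gene was counted as raised or lowered at a deposited adjusted p under 0.05. UBE3D, the targeted gene, stood at -0.80 (SE 0.37, adjusted p = 0.00632), or 57.4% of control, in the authors' deposited table, a call that was lost in a Wald test of the shrunken change over its SE (adjusted p = 0.295). The identity of the line was checked on levels per kilobase of annotated exon: the 6 mesenchymal markers ranged from 17.1 (SPARC) and 76.3 (FN1) to 2207 (AXL) normalized counts per kb. Of 8 luminal markers, FOXA1 (2.45), PGR (3.26) and CDH1 (12.1) were low, while KRT18 (774), KRT8 (527) and EPCAM (152) were not, so the luminal list as a whole was not absent. Among markers of other cells, 2 of 8 fibroblast markers were raised (LUM by 1.42 and PDGFRB by 0.96), 1 of 6 blood cell markers was lowered (CD68, -1.25) and 0 of 5 endothelial markers passed, in the authors' deposited table. Among 6 mesenchymal markers, 4 were lowered, VIM among them (-0.34), and of 8 luminal markers CDH1 was raised (1.06) and EPCAM lowered (-0.67), in the authors' deposited table. Of all genes measured, 7.93% were lowered and 4.62% raised, and of those with a mean of at least 100, 12.4% and 7.45%. In the Wald test the calls of PDGFRB, CDH1 and VIM were lost, as were those of the lowered mesenchymal markers SPARC and CD44. The part of these markers in the family's changes was not tested. In RNA from whole cultures, fewer cells of a type and less RNA per cell cannot be told apart.

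LIF fell while IL6 and IL11 did not pass the threshold. The receptor chains LIFR and OSMR fell beside the shared chain IL6ST, which did not pass. So 3 of the 8 genes were lowered and 0 were raised. Of all genes measured, 7.93% were lowered and 4.62% raised. In the 9743 genes whose mean reached 100, where all 8 lie, 12.4% were lowered and 7.45% raised. The median log2 fold change of the 8 was -0.03, equal to that of all genes (-0.03).

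**Figure D1:**
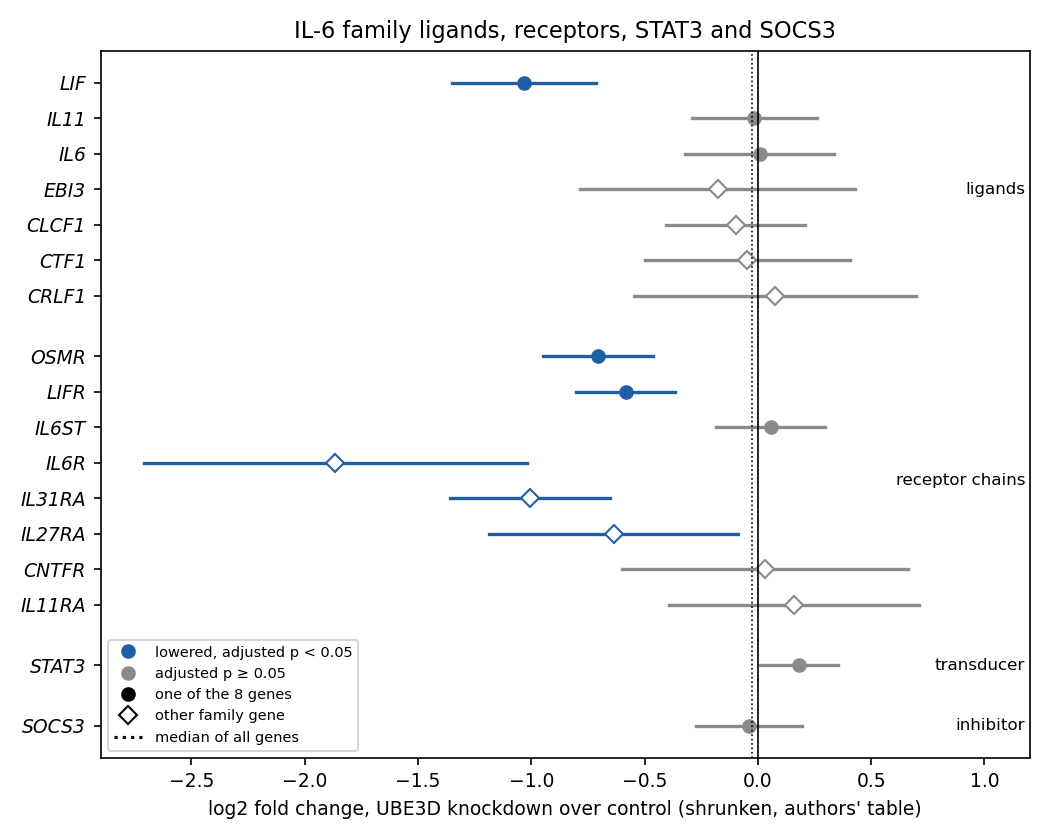
Log2 fold change of each family gene with a row (knockdown over control, authors' deposited values), with bars for the 95% interval from the deposited SE. Filled circles are the 8 genes and open diamonds the other ligands and receptors. LIF, OSMR, LIFR, IL6R, IL31RA and IL27RA lie below 0 with their whole interval, and IL6 at 0.01, IL11 at -0.02 and IL6ST at 0.06 lie near 0.

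LIF, which encodes leukaemia inhibitory factor, lies on chromosome 22 (30240447 to 30246851, minus strand, GRCh38). With a mean normalized count of 219, it had a log2 change of -1.03 (SE 0.16, 95% interval -1.35 to -0.71, adjusted p = 4.31e-10) in the authors' deposited table. That is 48.9% of the control level, with an interval from 39.2% to 61.1%. Ranked from the lowest log2 fold change, LIF was number 266 of 20115, and of the 8 genes it was the only one to reach the 2-fold change that the authors' own flag column requires. IL6, the founding cytokine of the family, on chromosome 7 (22725884 to 22732002), had a log2 change of 0.01 (SE 0.17, interval -0.32 to 0.34, adjusted p = 0.974) in the authors' deposited table, at a mean of 139. IL11, on chromosome 19 (55364389 to 55370463), had -0.02 (SE 0.14, interval -0.29 to 0.26, adjusted p = 0.948) at a mean of 475, in the authors' deposited table. The intervals of IL6 and IL11 do not overlap that of LIF. The difference between LIF and IL6 was -1.04 on the log2 scale (SE 0.23, interval -1.50 to -0.58) and that between LIF and IL11 -1.01 (SE 0.22, interval -1.44 to -0.59), with the 2 SE combined as if independent. Per kilobase of exon the means were 55.3 for LIF, 67.1 for IL6 and 178 for IL11.

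Of 8 further ligand genes, 4 had a row and 0 of these passed in either direction. CLCF1, which encodes a cytokine that acts through CNTFR, had a log2 change of -0.10 (SE 0.16, adjusted p = 0.609), and EBI3, a subunit of IL-27, had -0.18 (SE 0.31, adjusted p = 0.415), in the authors' deposited table. OSM, CNTF, IL27 and IL31 had no row and were not analysed here. LIF was therefore the 1 lowered gene among 7 family ligands with a row. That share is near the 12.4% lowered among genes whose mean reached 100, which 4 of the 7 reach. Of all genes 7.93% were lowered.

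OSMR, the oncostatin M receptor chain, and LIFR, the LIF receptor chain, lie on opposite strands of chromosome 5 with 238 kb between them. OSMR (38845858 to 38945596) had a log2 change of -0.71 (SE 0.12, interval -0.95 to -0.46, adjusted p = 3.21e-08) with a mean normalized count of 1376 in the authors' deposited table. This is 61.3% of control (51.9% to 72.5%). LIFR (38474963 to 38608354) had -0.58 (SE 0.11, interval -0.80 to -0.36, adjusted p = 3.35e-07) at a mean of 753 in the authors' deposited table, which is 66.7% of control (57.3% to 77.7%). The 2 receptor genes differed from each other by 0.12 (interval -0.20 to 0.45), an interval that holds 0. IL6ST (55935095 to 55994993, same chromosome), the shared chain, had 0.06 (SE 0.12, interval -0.18 to 0.30, adjusted p = 0.764) at a mean of 4882 in the authors' deposited table. It was the most abundant of the 8 per kilobase, at 525 normalized counts per kb against 192 for OSMR and 63.5 for LIFR. The log2 change of OSMR minus that of IL6ST was -0.76 (interval -1.10 to -0.42), and that of LIFR minus IL6ST was -0.64 (interval -0.97 to -0.32).

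The family has further receptor chains outside the 8 genes. Of 5 such genes with a row, 3 were lowered and 0 raised, with a median log2 fold change of -0.64. IL6R, the IL-6-binding chain, had -1.86 (SE 0.43, interval -2.71 to -1.02, adjusted p = 4.61e-06) at a mean of 55.6 in the authors' deposited table, 27.5% of control and number 30 from the lowest of all genes. IL31RA, the partner of OSMR in the IL-31 receptor, had -1.01 (SE 0.18, interval -1.36 to -0.65, adjusted p = 3.49e-08) at a mean of 141 in the authors' deposited table. IL27RA, which pairs with gp130 in the IL-27 receptor, had -0.64 (SE 0.28, interval -1.19 to -0.09, adjusted p = 0.00806) in the authors' deposited table, and this call was lost in the Wald test (adjusted p = 0.253). IL11RA (0.16, interval -0.39 to 0.71) and CNTFR (0.03, interval -0.60 to 0.66), at means of 52.2 and 24.1, did not pass in the authors' deposited table. Counting all 7 chains other than IL6ST, 5 were lowered and 0 raised, against 7.93% and 4.62% of all genes. By the difference from IL6ST, IL6R stood at -1.92 (interval -2.80 to -1.04), IL31RA at -1.06 (-1.49 to -0.63) and IL27RA at -0.69 (-1.29 to -0.09). With IL6ST included, 4 of the 8 chains had a mean of at least 100, and 3 of these 4 were lowered (LIFR, OSMR and IL31RA, not IL6ST), against 12.4% of all genes with that mean.

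**Figure D2:**
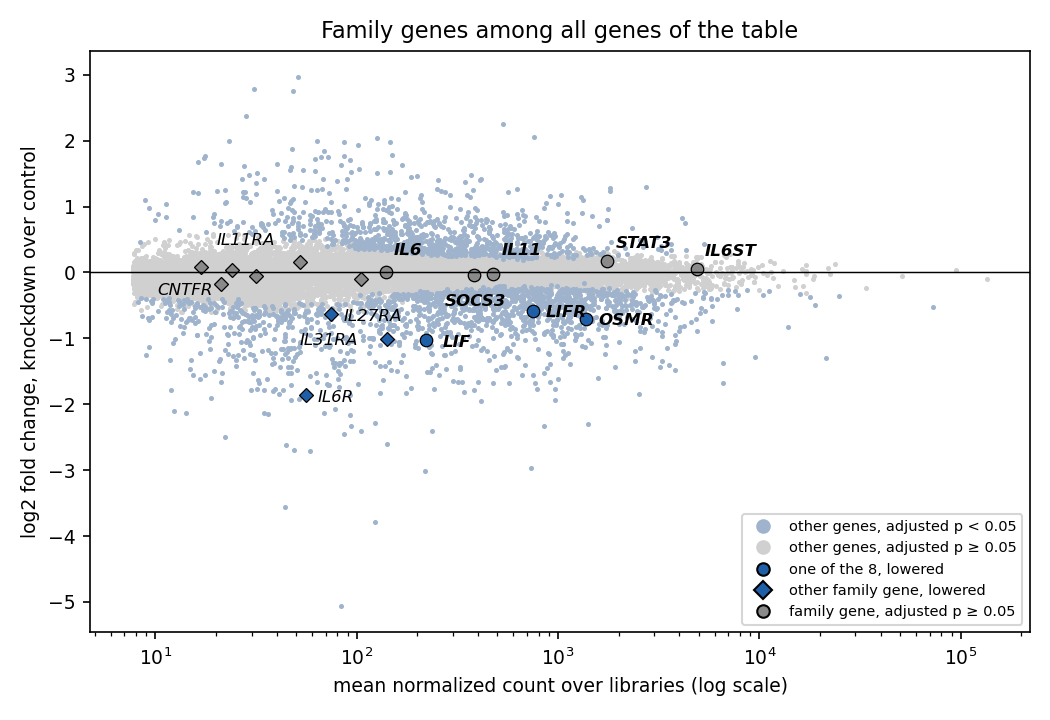
Log2 fold change against mean normalized count (log axis) for all 20115 genes, with the family genes marked. LIF at -1.03, OSMR at -0.71 and LIFR at -0.58 lie below 0, as do IL6R, IL31RA and IL27RA, and IL6ST lies at the right of the family with a mean of 4882.

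STAT3 (chromosome 17, 42313324 to 42388568), the factor that gp130 activates, had a log2 change of 0.18 (SE 0.09, interval 0.01 to 0.35, p = 0.018, adjusted p = 0.106) at a mean of 1756 in the authors' deposited table. Its interval lies above 0 while its adjusted p missed the threshold, and it was the highest of the 8 genes, at 113% of control (101% to 128%). SOCS3 (chromosome 17, 78356778 to 78360077), a STAT3 target and inhibitor of gp130, had -0.04 (SE 0.12, interval -0.27 to 0.19, adjusted p = 0.846) at a mean of 383 in the authors' deposited table. The interval of SOCS3 runs from 82.9% to 114% of control.

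The promoters of the 2 receptor genes that fell together are shown because each also holds the start of a noncoding RNA on the other strand. This is not particular to them: the IL6ST promoter, not printed, holds the start of the noncoding RNA FLJ31104 (IL6ST-DT). Promoters from RefSeq (GRCh38.p14, 250 bases before to 50 after an annotated start) were found for 7 of the 8 genes, with 10 starts in all. Those of OSMR and LIFR are printed along the gene's own strand, with matches to 4 short motifs in capitals. The motifs are the STAT-bound element TTCNNNGAA, the AP-1 site TGANTCA, the C/EBP site TTGCNNAA and the NF-kB site, each sought on both strands.
OSMR, chr5:38845762-38846061, plus strand: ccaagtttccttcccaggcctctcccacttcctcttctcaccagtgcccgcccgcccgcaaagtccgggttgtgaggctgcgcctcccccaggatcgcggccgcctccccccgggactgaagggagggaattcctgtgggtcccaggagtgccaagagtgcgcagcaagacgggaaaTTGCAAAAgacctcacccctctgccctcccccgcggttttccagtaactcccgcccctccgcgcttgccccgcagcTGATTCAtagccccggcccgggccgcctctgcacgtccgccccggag
LIFR, chr5:38556597-38556896, minus strand: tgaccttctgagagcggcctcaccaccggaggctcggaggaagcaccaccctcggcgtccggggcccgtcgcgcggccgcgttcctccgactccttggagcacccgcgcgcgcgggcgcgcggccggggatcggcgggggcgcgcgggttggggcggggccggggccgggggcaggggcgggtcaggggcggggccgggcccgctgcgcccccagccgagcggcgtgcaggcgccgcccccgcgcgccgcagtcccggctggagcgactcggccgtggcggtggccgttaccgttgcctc
In OSMR the capitals mark a C/EBP match at -73 and an AP-1 match at 4, counted from the RefSeq start as 1. The LIFR promoter holds none of the 4, is 81.7% G and C, and is 1 of 3 starts listed for LIFR; the start used in these cells is not known. The 2 other LIFR starts each hold a STAT-bound element, at -165 and -182, and the second of them also holds a C/EBP match at -31. Of 35116 promoters of this length, 7.66% hold the STAT-bound element, 7.71% the AP-1 site, 10.5% the C/EBP site and 1.91% the NF-kB site. IL6 has the C/EBP site at -155 and the NF-kB site at -73, and IL11 has the AP-1 site at -96. The promoters of IL6ST, STAT3 and SOCS3 hold none of the 4. A match is a description of the letters and not a measured binding site.

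The noncoding partners of the lowered receptors did not pass the threshold. LIFR-AS1 starts in the LIFR promoter printed above and runs from there on the plus strand. It overlaps only the part of the LIFR gene upstream of that printed start. LIFR-AS1 had a log2 change of 0.03 (SE 0.24, adjusted p = 0.903) at a mean of 40.3 in the authors' deposited table. OSMR-AS1, which starts in the OSMR promoter on the minus strand, had 0.04 (SE 0.26, adjusted p = 0.855) at a mean of 14.0 in the authors' deposited table. FLJ31104, which starts in the IL6ST promoter on the plus strand, had -0.04 (SE 0.28, adjusted p = 0.843) at a mean of 19.2 in the authors' deposited table. The log2 change of LIFR minus that of LIFR-AS1 was -0.61 (interval -1.13 to -0.09), and that of OSMR minus OSMR-AS1 was -0.75 (interval -1.31 to -0.18). The read pairs were stranded, but whether the counting used strand is not given in the sources used here. Reads of overlapping genes on opposite strands may therefore not be told apart.

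Within 100 kb of the 8 genes, 27 other genes had a row, and 2 of them were lowered and 0 raised, a lowered share near the 7.93% of all genes. IL31RA, described above, ends 12.2 kb past the end of IL6ST on the opposite strand. STEAP1B, which overlaps the start of IL6 on the opposite strand, stood at -0.57 (SE 0.71, adjusted p = 0.0458) with a mean of 11.7 in the authors' deposited table. Its 95% interval ran from -1.96 to 0.82, and its call was lost in the Wald test. None of the 7 neighbours of LIF, LIFR and OSMR passed (0 raised and 0 lowered), and their median log2 fold change was -0.04. RICTOR, which overlaps the end of OSMR on the opposite strand and encodes a subunit of mTORC2, had -0.15 (SE 0.11, adjusted p = 0.285) in the authors' deposited table.

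**Figure D3:**
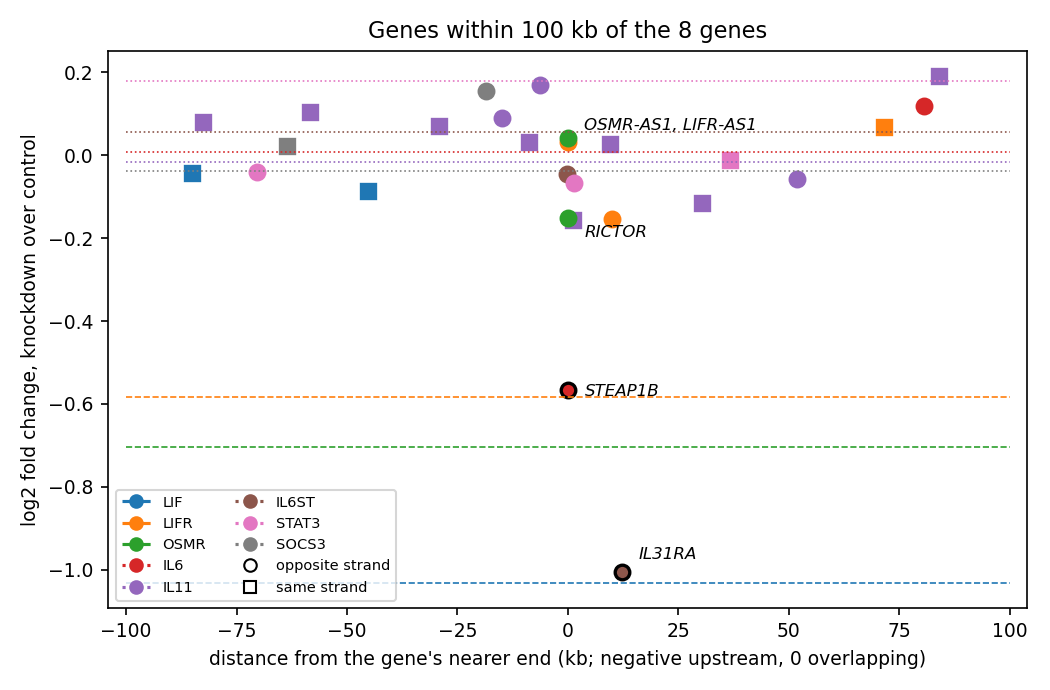
Log2 fold change of the 27 genes within 100 kb of the 8 genes, by distance from the nearer end of the gene (kb, negative upstream). Colours give the gene whose neighbour is plotted, dashed and dotted lines that gene's own change (dashed where it passed), and black rims mark the 2 neighbours past the threshold, IL31RA and STEAP1B.

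The 3′ untranslated regions (UTRs) of cytokine mRNAs are known for AU-rich elements, where decay factors bind. In the longest 3′ UTR of the basic coding transcripts of GENCODE 29, the heptamer TATTTAT occurs 5 times in LIF, 3 times in IL6 and 7 times in IL11. It occurs 3 times in OSMR, 2 times in SOCS3, 1 time each in LIFR and IL6ST, and 0 times in STAT3. The IL6ST UTR used, of 7641 bases, spans 55935125 to 55956218 and is thus spliced from more than 1 exon. Its counts belong to that transcript, and other IL6ST transcripts may end differently. Of 16170 such UTRs of genes in the table, 33.4% hold it, and of the 5429 with at least 2000 bases, the class of LIF, OSMR, LIFR, IL6ST and STAT3, 60.3% do. The heptamer occurs in the ligand that fell and in the pair that did not pass, and its part in the changes was not tested. The first 30-base stretch to reach the gene's highest count of ATTTA pentamers (in capitals) is shown for the 3 ligands. It sets LIF beside the pair that did not pass, and in IL6 other stretches hold as many.
LIF, chr22:30240522-30240551, minus strand: ATTTAttcaatgtcatATTTAaaatATTTA
IL6, chr7:22731697-22731726, plus strand: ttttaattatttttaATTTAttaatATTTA
IL11, chr19:55365951-55365980, minus strand: ttccaaagccagatcttATTTATTTATTTA
The stretch holds 3 pentamers in LIF, 2 in IL6 and 3 in IL11.

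The word GATTGAA was looked up in the 8 genes because an earlier scan of these data found it more often in UTRs of lowered genes. LIFR holds it 2 times and the other 7 genes 0 times. Since LIFR is itself a lowered gene of these data, its sites are no independent support for the word. Both sites are far from the stop codon, at positions 4881 and 5128 of a UTR of 6632 bases, and are printed with the word in capitals.
LIFR, chr5:38476696-38476725, minus strand: aaagaaaaactGATTGAAcattagccagaa
LIFR, chr5:38476449-38476478, minus strand: tttgcacacgtGATTGAAtggctcacttaa
Of the 16170 UTRs 9.50% hold the word, and of the 5429 with at least 2000 bases 20.6% do. Neither LIF nor OSMR holds it, and its part in the fall of LIFR was not tested. Among the other receptor chains IL27RA has it 1 time and IL6R and IL31RA 0 times. CTTATCT, which the same scan found more often in raised genes, is present 1 time in IL6ST and 0 times in the other 7. The hairpin sequences were not used here.

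**Figure D4:**
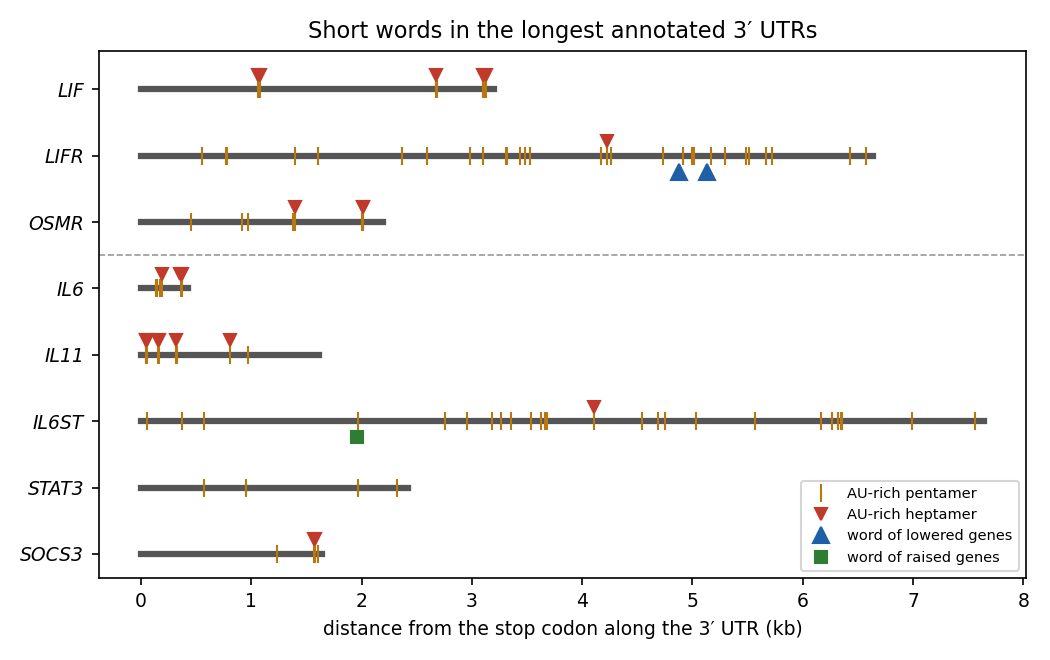
Positions of 4 short words along the longest annotated 3′ UTR of each of the 8 genes, in kb from the stop codon. The UTR of IL6ST is a spliced one, and its distances run along the spliced sequence. The 3 lowered genes are above the dashed line. AU-rich heptamers (TATTTAT, triangles pointing down) occur on both sides of it. The word of lowered genes (GATTGAA, triangles pointing up), taken from an earlier scan of these same data, occurs in LIFR alone among the 8.

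Of the other genes of the pathway, lists for each role were drawn up by function, with earlier results of these data known. Their counts are to be read against 12.4% lowered and 7.45% raised among genes whose mean reached 100, and 7.93% and 4.62% among all genes. The 4 JAK kinases did not pass (0 raised, 0 lowered), with a median log2 fold change of -0.01. JAK1, the main kinase on gp130, had 0.01 (SE 0.11, interval -0.21 to 0.22), and JAK3 (0.28, adjusted p = 0.238) and TYK2 (-0.08, adjusted p = 0.572) did not pass either, in the authors' deposited table. Of 6 other STAT genes 1 was lowered and 0 raised: STAT6, which IL-4 activates, had -0.28 (SE 0.11, adjusted p = 0.0245) in the authors' deposited table. STAT6 lost its call in the Wald test. Of 8 adaptors and kinases downstream of gp130, all with a mean of at least 100, 1 was lowered and 0 raised, a share near that of all such genes (12.4%). That was SHC1, an adaptor to the RAS pathway, at -0.50 (SE 0.12, adjusted p = 2.17e-05) in the authors' deposited table.

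Inhibitors of the pathway had 2 of 15 lowered and 0 raised, with a median of -0.10. That share is near the 12.4% lowered among genes whose mean reached 100, which 11 of the 15 reach. SH2B3, which encodes the adaptor LNK, a brake on JAK2, had -0.55 (SE 0.11, adjusted p = 9.38e-07) at a mean of 959 in the authors' deposited table. SOCS1, a relative of SOCS3, had -1.22 (SE 0.66, adjusted p = 0.00428) at a mean of 16.7 in the authors' deposited table. Its 95% interval from the shrunken values runs from -2.51 to 0.07, and the call was lost in the Wald test (adjusted p = 0.508). Of 4 genes that release receptors and ligands from the cell surface, all with a mean of at least 100, 2 were lowered and 0 raised, against 12.4% and 7.45% of genes with that mean. RHBDF2, which encodes a partner of the protease ADAM17, had -0.50 (SE 0.16, adjusted p = 0.000908) and the protease gene ADAM10 had -0.34 (SE 0.15, adjusted p = 0.0237), in the authors' deposited table, while ADAM17 itself (-0.05, adjusted p = 0.767) did not pass. ADAM10 lost its call in the Wald test.

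Known STAT3 target genes had 6 of 17 lowered and 0 raised, in a list without SOCS3, which is one of the 8 genes and did not pass (-0.04). Of all genes 7.93% were lowered, and of those with a mean of at least 100, which 13 of the 17 reach, 12.4% were. Below 0 were 16 of the 17, against 56.8% of all genes and 49.8% of those with a mean of at least 100. Their median log2 fold change was -0.18, against -0.03 for all genes. TIMP1, an inhibitor of matrix metalloproteinases, had -0.51 (SE 0.11, adjusted p = 2.57e-06), and the angiogenic factor gene VEGFA had -0.46 (SE 0.12, adjusted p = 8.06e-05), in the authors' deposited table. The kinase gene PIM1 stood at -0.41 (SE 0.14, adjusted p = 0.00267) and the adhesion gene ICAM1 at -0.33 (SE 0.12, adjusted p = 0.00747) in the authors' deposited table. The other 2 lowered targets were CEBPB (-0.40, adjusted p = 0.0413) and CCND1 (-0.28, adjusted p = 0.0395) in the authors' deposited table. Among the 11 targets that did not pass were BCL3 (-0.15), FOS (-0.04), JUNB (-0.03) and MCL1 (0.05). Whether STAT3 activity changed was not tested. In the Wald test 3 of the 17 were lowered, and 2 after a shift of all fold changes to a median of 0.

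**Figure D5:**
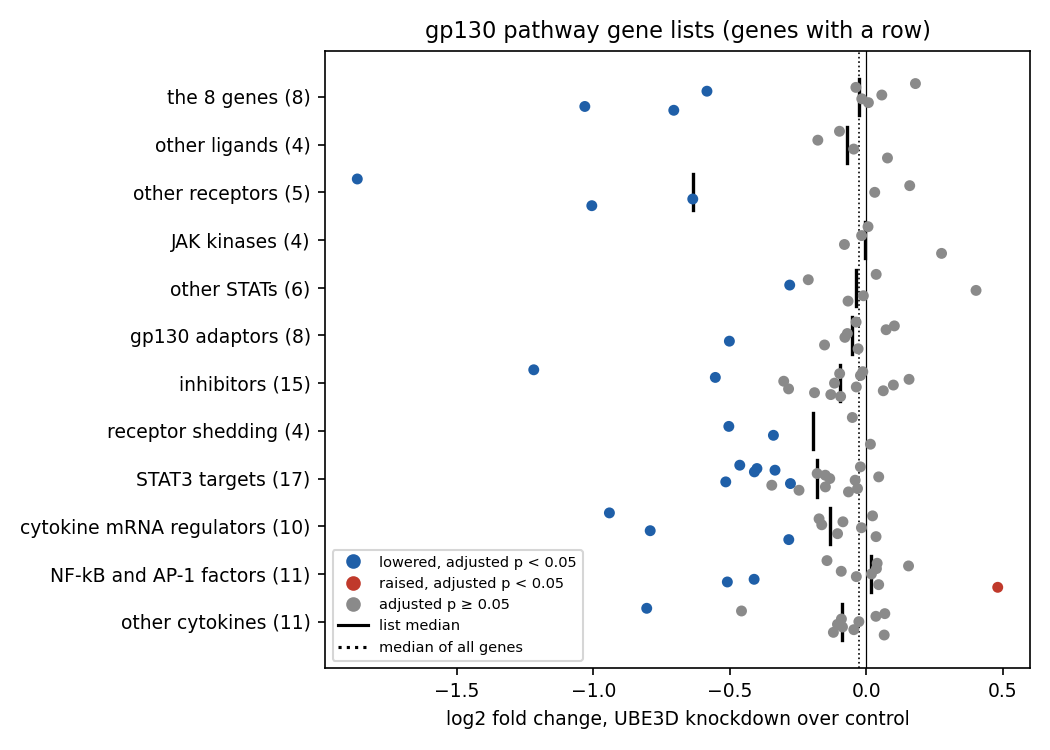
Log2 fold change of every gene with a row in each list, with the list median as a black bar and the median of all genes (-0.03) as a dotted line. The other receptors have a median of -0.64 and the STAT3 targets one of -0.18, and the JAK kinases lie around 0.

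Regulators of cytokine mRNA and of cytokine transcription were counted next. Of 10 genes for factors of mRNA decay or stability, 3 were lowered and 0 raised, against 12.4% and 7.45% of genes whose mean reached 100, which 8 of the 10 reach. ZFP36L1, a decay factor for AU-rich mRNAs, had -0.94 (SE 0.14, adjusted p = 4.25e-11) and KHSRP, another such factor, had -0.79 (SE 0.15, adjusted p = 2.61e-07), in the authors' deposited table. RC3H2, which encodes roquin-2, had -0.28 (SE 0.12, adjusted p = 0.0292) in the authors' deposited table, and ZC3H12A, which encodes regnase-1, an IL6 mRNA nuclease, had 0.04 (adjusted p = 0.866). RC3H2 lost its call in the Wald test. Of 11 NF-kB and AP-1 genes, all with a mean of at least 100, 2 were lowered and 1 raised, against 12.4% and 7.45% of genes with that mean. The AP-1 genes FOSL1 (-0.41, adjusted p = 0.00329) and JUND (-0.51, adjusted p = 0.0109) were lowered and ATF3 (0.48, adjusted p = 0.00571) was raised in the authors' deposited table, and none of the 3 passed in the Wald test (adjusted p = 0.0588, 0.238 and 0.124). No NF-kB subunit gene passed, with RELA at 0.02 and NFKB1 at -0.09 in the authors' deposited table. Among 11 cytokine genes outside the family, CSF1, which encodes the macrophage growth factor M-CSF, was the 1 lowered (-0.80, SE 0.11, adjusted p = 5.81e-13) and 0 were raised, in the authors' deposited table. That lowered share is near the 7.93% of all genes. CXCL8 (-0.46, SE 0.37, adjusted p = 0.0834) and IL1A (-0.09, adjusted p = 0.628) did not pass in the authors' deposited table.

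No readthrough region carried the name of one of the 8 genes, so their readthrough was not analysed here. Of the 9743 genes with a mean of 100 or more, 1706 (17.5%) had a region with their name. Of the genes in the lists, 15 had one, and 4 of these regions were lowered and 0 raised, against 16.1% lowered and 12.7% raised among all 2014 regions. The region past FOSL1 (-0.45, adjusted p = 0.00903) fell with its gene in the authors' deposited tables, with a difference between region and gene of -0.04 (interval -0.50 to 0.41). Past ZFP36L1, the region had -0.04 (SE 0.24, adjusted p = 0.893) in the authors' deposited table, higher by 0.90 on the log2 scale than the gene itself (interval 0.36 to 1.45). JAK1, whose gene stood at 0.01, had a region at 0.31 (SE 0.18, adjusted p = 0.0711) in the authors' deposited table. A further 2 lowered regions had merged names, that of MCL1 with ADAMTSL4-AS1 (-0.36, adjusted p = 0.0148) and that of RC3H2 with SNORD90 (-0.66, adjusted p = 6.28e-05), in the authors' deposited table.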

How the data were processed

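Ribosomal RNA was removed from total RNA of 3 control and 3 UBE3D KD samples before random-primed cDNA synthesis and stranded paired sequencing (75 bp), per the labels' protocols. Cutadapt 1.8.1, STAR 2.5.2b, DESeq2 and build hg38 appear in the submitters' processing notes. How reads were counted, with which strand setting and annotation, and how DoG regions were called is not given in the sources used here. Per the file headers, the deposited rows hold a mean normalized count (a signal), a log2 fold change with SE, a p-value and its adjusted form. The last equals a Benjamini-Hochberg adjustment over each table. The deposited log2 changes are shrunken, since the change over SE was smaller than the p-value implies in 20112 of 20112 gene rows (median ratio 0.64). No fit of counts was possible, so calls rest on the deposited adjusted p.

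Computed here were counts of calls, 95% normal intervals, differences between genes and the alternatives of the closing section, with Python 3.11.15, numpy 2.4.6, pandas 2.3.3, scipy 1.17.1 and matplotlib 3.10.9. The Wald and adjustment steps were tested on simulated data. GENCODE 29 (GRCh38) gave coordinates and UTRs; 18469 of 20115 symbols matched, and the annotation used upstream may be another. UTRs under 50 bases were left out of the background. The 8 genes and the lists were chosen with earlier results of these data known, and the 2 words GATTGAA and CTTATCT come from those results. Named were all 8 genes, UBE3D, in each list the 4 called genes of lowest p-value (or 2 others if none was called), neighbours past the threshold and DoG regions of the 8 genes. Other genes, the DoG regions of list genes, the compared pairs and the promoter motifs were chosen after their values or sequences were seen. One result on a list gene is not reported here.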

Additional observations from a re-analysis of the deposited data

How the results depend on the processing

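LIF, LIFR and OSMR were lowered under 5 alternatives (thresholds of 0.01 and 0.10, the Wald test, that test after a shift, and only genes with a mean of at least 50), with adjusted p from 2.50e-10 to 5.04e-08 for LIF, 1.97e-07 to 2.54e-05 for LIFR and 1.89e-08 to 2.11e-06 for OSMR. IL6, IL11, IL6ST, STAT3 and SOCS3 passed under none of these, and the lowest adjusted p of STAT3 was 0.0762; the sign of IL11, not a call, changes with the shift of 0.03. With a 2-fold change also required, an alternative chosen after the data were seen, 1 of the 8 genes (LIF) and 2 of the 7 receptor chains were lowered, LIFR (-0.58) and OSMR (-0.71) and UBE3D (-0.80) no longer counted, 4 of 71 family and pathway genes were lowered, and 113 genes were raised and 280 lowered in all. Of the 71 genes, 18 were lowered and 0 raised, 11 lowered in the Wald test, 10 after the shift, and 1 was raised at 0.10. Over all genes measured, 579 were raised at 0.01, 390 raised and 826 lowered in the Wald test, and 440 and 736 after the shift, against 929 and 1595. UBE3D lost its call in the Wald test (-0.80, adjusted p = 0.295) and after the shift (-0.78, adjusted p = 0.330). At 0.01, in both Wald tests and at a mean of at least 50, 1 neighbour was lowered in place of 2. The same held with the 2-fold change. Within 500 kb 6 of 141 were raised and 7 lowered. Both the 141 and the 7 include LIFR and OSMR, each as a neighbour of the other. The Wald tests use shrunken changes, which weakens calls by construction, and fewer genes are tested at a mean of at least 50; for the other changes the cause was not tested. Among single list genes, list counts, counts of DoG regions and word counts, 44 counts moved by over 1.5 times or to or from 0, and 57 calls were lost. Each gene or count enters once per alternative, so the same gene can be counted more than once. Of the lost calls, 22 came with the 2-fold change. The other 365 values kept their call or, for counts, stayed within 1.5 times. Word counts were equal when the longest UTR was taken from all coding transcripts. No paired analysis was possible because the tables hold no values per library, and for the same reason no replicate could be left out. Depth is unknown, so the SE alone limits what could be seen.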
